A study of Dorcoceras hygrometricum with 14 samples.

Results

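The genes described here encode glutamate decarboxylase and succinate-semialdehyde dehydrogenase, enzymes of the GABA shunt, in leaf explants of Boea hygrometrica. They were chosen by the text of their homology description or product name in the expression table (glutamate decarboxylase, gamma-aminobutyrate transaminase or succinate-semialdehyde dehydrogenase), up to 10 by mean level over the 12 libraries. Of 24110 genes in the table, 3 matched, so the cap was not reached and no gene lay just outside it. One of them, F511_23720, was placed in the selection by name with its levels already known, so its changes between days are given as a description and support nothing. The other 2 genes are F511_00069 and F511_11597. All 3 were among the 17288 genes tested.

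Boea hygrometrica, listed as Dorcoceras hygrometricum, is a resurrection plant, able to survive drying, whose leaf pieces can regenerate in culture. Explants were cut from young leaves of sterile 1-month-old plants as segments with sides of 0.5 cm and kept on half-strength MS medium that held an auxin, 2,4-D, at 0.1 mg/L and a cytokinin, 6-BA, also at 0.1 mg/L. RNA was sequenced after 0, 5, 10 and 15 days on this medium, with 3 biological replicates per day and about 30 leaf discs pooled in each. The day 0 libraries are the reference for the later days. DNA methylation was compared between untreated mature leaves of 6-month-old plants and untreated young leaves of 1-month-old plants, with 1 bisulfite library each, made from DNA mixed from 5 replicates.

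Glutamate decarboxylase removes a carboxyl group from glutamate in the cytosol and gives GABA, a four-carbon amino acid that does not enter proteins. In plants the enzyme is stimulated by calcium and calmodulin and by a fall in cytosolic pH, and GABA accumulates in many stressed tissues. In the mitochondrion, GABA transaminase converts GABA to succinic semialdehyde, and succinate-semialdehyde dehydrogenase oxidises this to succinate, which enters the tricarboxylic acid cycle.

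Levels are FPKM, fragments scaled to transcript length and library size, and can be compared between genes per length. Totals ran from 846672 to 970083 FPKM per library, and between 15531 and 16496 genes reached 1 FPKM. The table holds no read counts, and the sequencing depth of the libraries is unknown. Summed FPKM of 13 genes for chlorophyll-binding proteins and the Rubisco small subunit, markers of green mesophyll, lay between 58892 and 89875 at day 0, 20885 and 28488 at day 5, 16854 and 65392 at day 10, and 11288 and 37654 at day 15. All 13 were detected at every day, as a leaf should show. Summed FPKM of 6 genes for B-type cyclins and cyclin-dependent kinases ran from 229 to 282 at day 15 and from 132 to 211 at day 0. Of the other marker lists, no gene matched the root list, 5 xylem genes summed to 22.4 to 35.0 FPKM at day 15 and 14.2 to 28.9 FPKM at day 0, and 7 genes described as pollen-specific summed to 170 to 211 FPKM at day 15 and 132 to 165 FPKM at day 0. The part of these shifts in the results below was not tested. In whole explants, fewer cells of a type and less RNA per cell cannot be told apart.

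The 2 glutamate decarboxylase genes are described first. F511_00069, described as glutamate decarboxylase, was the more abundant at every day and ranked 595 of 24110 genes by mean level, with 246 FPKM over the 12 libraries. F511_23720, described as glutamate decarboxylase-like, averaged 15.9 FPKM and ranked 8516. F511_00069 lies on scaffold KQ990066.1 from 559943 to 564048, an interval of 4106 bases with 1 transcript listed. F511_23720 lies on scaffold KV006349.1 from 319869 to 322422, an interval of 2554 bases with 1 transcript listed. The genome build of these coordinates is not given in the sources used here.

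F511_23720 stood at 0.53, 0.43 and 0.76 FPKM in the 3 libraries of day 0. It stood at 10.26, 6.96 and 1.76 FPKM at day 5, and at 8.28, 16.26 and 12.98 FPKM at day 10. At day 15 its levels were 38.53, 59.2 and 35.3 FPKM. All 9 libraries of the later days lay above all 3 of day 0, days 5 and 10 overlapped, and all 3 libraries of day 15 lay above the other 9. Replicate 3 was the lowest library of day 5.

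**Figure D1:**
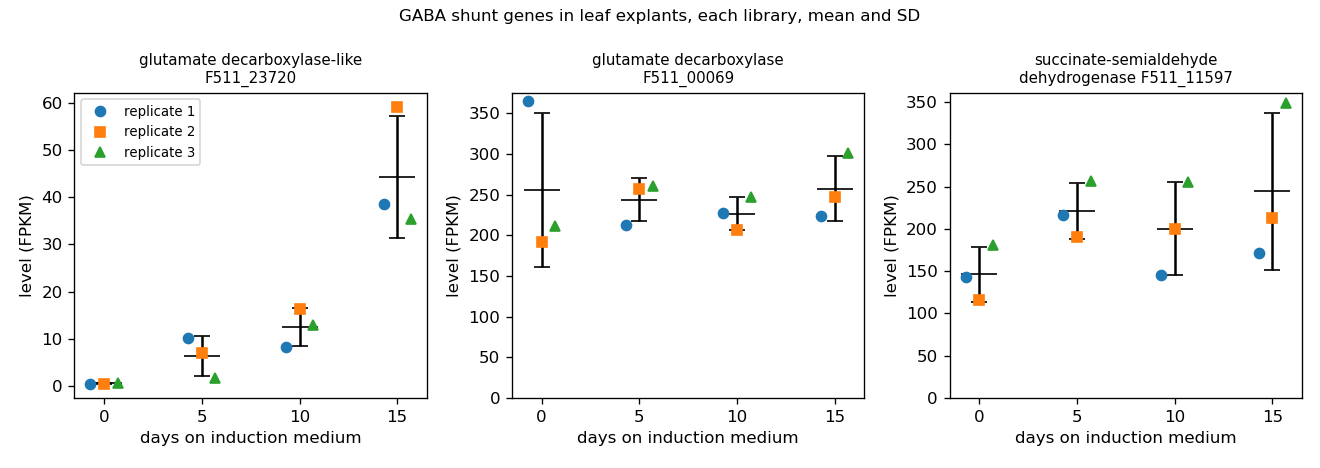
Level in FPKM (vertical axes, linear) of F511_23720, F511_00069 and F511_11597 in each library against days on induction medium, with horizontal bars for the mean and vertical bars for the SD of 3 libraries. F511_23720 is highest in the 3 libraries of day 15 (35.3 to 59.2 FPKM), F511_00069 lies between 192 and 365 FPKM throughout, and replicate 3 is the highest library of F511_11597 at each day.

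Mean levels of F511_23720 were 0.573 ± 0.169, 6.33 ± 4.29, 12.5 ± 4.01 and 44.3 ± 12.97 FPKM at days 0, 5, 10 and 15 (SD, n = 3 each). The ratio of the mean level to that of day 0 was 11.03 at day 5, 21.8 at day 10 and 77.3 at day 15. On the log2(FPKM + 1) scale, which understates the change of a gene that starts below 1 FPKM, the fold changes were 2.00, 3.06 and 4.82, each with an SE of 0.45 in a limma fit. The last was the sixth highest of the 17288 genes tested. Between the later days, the log2 fold change of F511_23720 was 1.06 at day 10 against day 5, 1.76 at day 15 against day 10 and 2.82 at day 15 against day 5. As the gene was selected with these values known, they are descriptions.

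F511_00069 had 365.25, 191.53 and 211.84 FPKM at day 0, 213.22, 256.71 and 261.27 FPKM at day 5, 227.5, 206.21 and 246.87 FPKM at day 10, and 223.52, 247.67 and 301.9 FPKM at day 15. The libraries of every day overlapped with those of every other day, and the widest spread was within day 0, where replicate 1 held the highest value of all 12. Its means were 256 ± 94.98, 244 ± 26.5, 227 ± 20.3 and 258 ± 40.1 FPKM at days 0, 5, 10 and 15 (SD, n = 3 each). No comparison of F511_00069 passed limma's moderated test. Its log2 fold change at day 15 against day 0 was 0.06, with a 95% interval of -0.46 to 0.57 and an adjusted p of 0.894. The fold changes were -0.02 at day 5 (interval -0.53 to 0.50, adjusted p = 0.977) and -0.12 at day 10 (interval -0.63 to 0.40, adjusted p = 0.798). Each of these limma intervals leaves out a doubling and a halving of the level, which on this scale are changes of 1 and -1. Over the 12 libraries the highest level of F511_00069 was 1.91 times the lowest, whereas for F511_23720 this ratio was 138.

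Taken as a share of the summed FPKM of both decarboxylase genes, F511_23720 made up 0.145%, 0.224% and 0.357% in the libraries of day 0 and 4.59%, 2.64% and 0.669% in those of day 5. Its share was 3.51%, 7.31% and 5.00% at day 10 and 14.7%, 19.3% and 10.5% at day 15. F511_00069 therefore supplied the larger share in every library. The summed level of both genes averaged 257 ± 94.96, 250 ± 23.0, 239 ± 18.9 and 302 ± 37.8 FPKM at days 0, 5, 10 and 15 (SD, n = 3 each). These sums overlapped between day 15, with 262 to 337 FPKM, and day 0, with 192 to 366 FPKM.

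**Figure D2:**
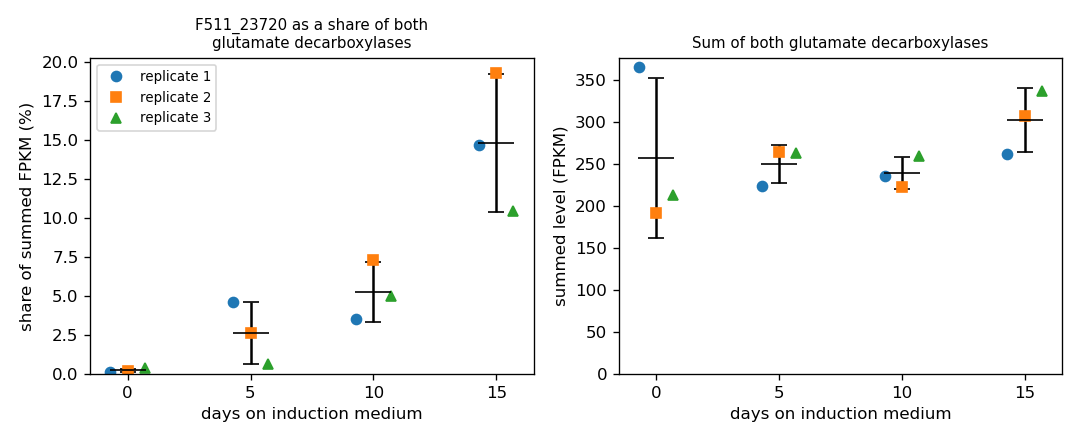
Left, F511_23720 as a percentage of the summed FPKM of F511_23720 and F511_00069 in each library. Right, that sum in FPKM. Points are libraries, bars the mean and SD of 3 libraries per day. The mean share is 14.8% at day 15 and 0.242% at day 0, while the sums of day 15 and day 0 overlap.

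F511_11597 encodes the mitochondrial succinate-semialdehyde dehydrogenase, the last enzyme of the shunt. It lies on scaffold KV010623.1 from 99654 to 109068, an interval of 9415 bases with 4 transcripts listed, and averaged 203 FPKM over the 12 libraries. It had 142.73, 115.64 and 180.48 FPKM at day 0, 216.89, 190.3 and 256.54 FPKM at day 5, 145.27, 199.88 and 255.68 FPKM at day 10, and 170.99, 213.42 and 349.13 FPKM at day 15. All libraries of day 5 lay above all of day 0, whereas those of days 10 and 15 overlapped with day 0. Replicate 3 was the highest library at each of the 4 days.

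Mean levels of F511_11597 were 146 ± 32.6, 221 ± 33.3, 200 ± 55.2 and 245 ± 93.1 FPKM at days 0, 5, 10 and 15 (SD, n = 3 each). In order of mean level the days were 0, 10, 5 and 15, and each neighbour in this order overlapped with the next. The log2 fold change of F511_11597 against day 0 was 0.61 at day 5 (95% interval -0.03 to 1.25, adjusted p = 0.194), 0.44 at day 10 (interval -0.20 to 1.08, adjusted p = 0.369) and 0.70 at day 15 (interval 0.06 to 1.33, adjusted p = 0.121) in limma's moderated test. None passed the threshold, so no change of this gene was detected in this fit, which held no replicate block, and a doubling lies within each interval. With a replicate block, limma's adjusted p was 0.0487 at day 5, 0.134 at day 10 and 0.0250 at day 15. The fold changes were the same, under the minimum of 1, so the gene was not called there either. The ratio of F511_11597 to the summed decarboxylases, both in FPKM, was 0.614 ± 0.230, 0.889 ± 0.145, 0.833 ± 0.192 and 0.794 ± 0.210 at days 0, 5, 10 and 15 (SD, n = 3 each), and its values overlapped between all days.

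Calls required an adjusted p under 0.05 together with a log2 fold change of 1 or more in either direction. Of the 3 genes, 1 was called at day 5, at day 10 and at day 15 against day 0, F511_23720 each time, among 6.61%, 4.49% and 9.02% of all genes tested at those days. Its presence in the selection fixed this count, and nothing is read from it. At day 10 against day 5 and at day 15 against day 10, limma called none of the 3 and 0 of all genes tested (0%), with 539 and 561 genes at an unadjusted p under 0.05, F511_23720 among them. At day 15 against day 5, limma called none of the 3 and 0.0463% of all genes, and F511_23720 was the member with an unadjusted p under 0.05. The call of F511_23720 at day 5 was lost on removal of day 0 replicate 1 (adjusted p = 0.0661) or 2 (0.0673), or of day 5 replicate 1 (0.0761) or 2 (0.0779), and those at days 10 and 15 held without any library. The comparisons with day 0 share their 3 day 0 libraries.

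**Figure D3:**
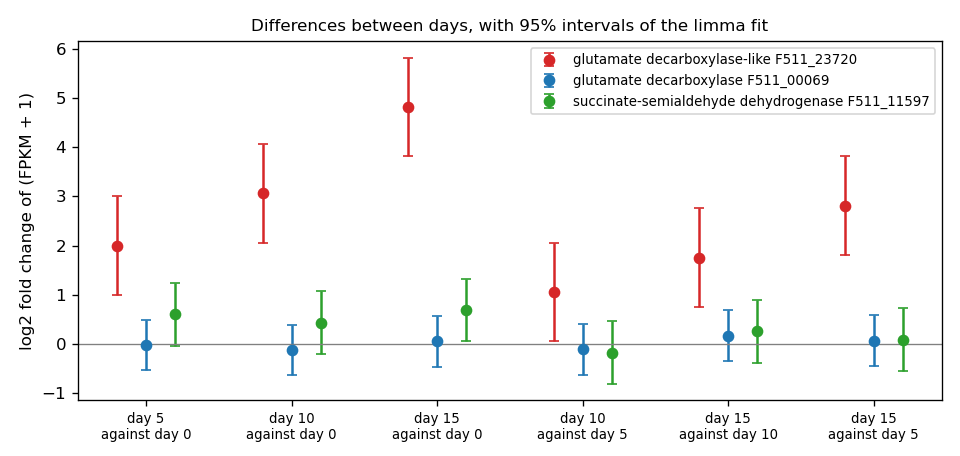
Log2 fold change of (FPKM + 1) in 6 comparisons of days for F511_23720, F511_00069 and F511_11597, with 95% intervals of the limma fit and a line at 0. F511_23720 is at 2.00, 3.06 and 4.82 against day 0, the intervals of F511_00069 all contain 0, and that of F511_11597 leaves out 0 at day 15 against day 0 before adjustment.

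The step between the 2 enzymes is carried out by GABA transaminase. The selection held none of its genes, because the table spells the enzyme without the hyphen. Beside it, 2 genes described as gamma aminobutyrate transaminase 3, chloroplastic, were followed. By product name F511_05475 is instead gamma aminobutyrate transaminase 1, mitochondrial-like, and F511_09027 a POLLEN-PISTIL INTERACTION 2 family protein. Whether either acts in the mitochondrial shunt was not tested. F511_05475 had 25.5 ± 1.81, 21.9 ± 6.79, 19.6 ± 6.06 and 20.2 ± 1.38 FPKM at days 0, 5, 10 and 15, and F511_09027 had 2.90 ± 1.44, 4.64 ± 0.852, 3.45 ± 2.58 and 4.50 ± 0.502 FPKM (SD, n = 3 each). Neither passed limma's test on any day. At day 15 against day 0 the log2 fold change was -0.32 for F511_05475 (95% interval -0.88 to 0.23, adjusted p = 0.402) and 0.56 for F511_09027 (interval -0.43 to 1.55, adjusted p = 0.413). The 3 libraries of F511_05475 at day 15, with 18.62 to 21.13 FPKM, lay below those of day 0, with 23.46 to 26.85 FPKM.

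A list of 21 genes was followed for transport and for succinic semialdehyde, of which 14 were tested. It held 13 aluminum-activated malate transporters (6 tested), anion channels rather than GABA transporters by name, 4 homologs of the amino-acid permease BAT1, 2 GABA transporters and 2 glyoxylate/succinic semialdehyde reductases. Called higher and lower were 1 and 0 at day 5, 1 and 0 at day 10, and 2 and 1 at day 15. In either direction, 6.61%, 4.49% and 9.02% of all genes tested were called at these days. The median log2 fold change of the 14 was 0.38, 0.10 and 0.46 at these days, beside 0.14, 0.15 and 0.21 over all genes tested. With the libraries rescaled by median ratios these list medians were 0.30, -0.01 and 0.32, and 1 gene was called higher and 2 lower at day 15. F511_13330, described as GABA transporter 1-like, had 6.98, 16.94 and 9.94 FPKM at day 0, 34.14, 27.68 and 49.19 FPKM at day 5, 19.92, 33.81 and 34.91 FPKM at day 10, and 27.56, 39.99 and 43.13 FPKM at day 15. In Arabidopsis, GABA transporter 1 carries GABA across the plasma membrane. All libraries of F511_13330 after day 0 lay above those of day 0, and it rose at all 3 days, with a log2 fold change of 1.67 (adjusted p = 0.0133) at day 5, 1.35 (adjusted p = 0.0348) at day 10 and 1.68 (adjusted p = 0.00984) at day 15. The call at day 15 held under all 18 alternatives. That at day 5 was lost on removal of day 0 replicate 1 (adjusted p = 0.0533) and with replicates 1 and 2 only (0.0601). That at day 10 was lost under 9 of the 18, with no filter (0.0541), only the 6 libraries compared (0.103) or replicates 1 and 2 only (0.113), and on removal of day 0 replicate 1 (0.131) or 3 (0.0600), of day 5 replicate 1 (0.0532), of day 10 replicate 2 (0.117) or 3 (0.0912), or of day 15 replicate 2 (0.0508).

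F511_09007, described as probable GABA transporter 2, had 40.8 ± 2.16 FPKM at day 15 and 22.5 ± 2.11 FPKM at day 0 (SD, n = 3 each). Its log2 fold change of 0.84 had an adjusted p of 0.0164 but did not reach the fold minimum, so it was not called, and it was singled out after its values were seen. F511_38398, described as aluminum-activated malate transporter 12-like, belongs to a family of anion channels whose members are regulated by GABA in other plants. It rose to 8.94 ± 0.181 FPKM at day 15, against 3.74 ± 0.424 FPKM at day 0 (SD, n = 3 each), a log2 fold change of 1.07 with an adjusted p of 0.0141 that became 0.0517 without day 0 replicate 1. With the libraries rescaled by median ratios its fold change was 0.89, under the minimum. The other malate transporters tested were not called. Their log2 fold changes at day 15 were 0.87 for F511_05186, 0.38 for F511_11080, 0.73 for F511_14053, 0.05 for F511_32694 and 0.18 for F511_29092. F511_02641, described as chloroplastic glyoxylate/succinic semialdehyde reductase 2, is named for the reduction of glyoxylate and succinic semialdehyde. It fell to 20.3 ± 8.44 FPKM at day 15, against 46.1 ± 10.5 FPKM at day 0 (SD, n = 3 each), with a log2 fold change of -1.20 and an adjusted p of 0.0323. Its adjusted p passed the threshold in the full fit but not on removal of day 0 replicate 1 (0.112) or 2 (0.101), or of day 15 replicate 2 (0.0738) or 3 (0.0992, with a fold change of -0.87), nor when only the 6 libraries compared were fitted (0.0622). The other reductase, F511_25932, had a log2 fold change of -0.81 at day 15 with an adjusted p of 0.0397 in limma's test. It did not reach the fold minimum and was singled out after its values were seen.

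The supply of glutamate, the substrate of both decarboxylases, was represented by a list of 15 genes, all tested. Of these, 13 were described as glutamine synthetase, glutamate synthase or glutamate dehydrogenase and 2 as folylpolyglutamate synthases, which act on folates, and the counts and medians cover all 15. Called higher and lower were 1 and 2 at day 5, 1 and 1 at day 10, and 1 and 2 at day 15. In either direction, 6.61%, 4.49% and 9.02% of all genes tested were called at these days. The median log2 fold changes of the list were -0.09, -0.01 and -0.13, beside 0.14, 0.15 and 0.21 over all genes tested. After rescaling by median ratios the list medians were -0.25, -0.18 and -0.34. Glutamine synthetase binds ammonium to glutamate. Of its 7 genes in the list, 2 were called, in opposite directions, which rescaling by median ratios did not alter. F511_27052, F511_10582, F511_19660 and BGI_novel_G001008 were not called and had log2 fold changes of 0.52, 1.09, 0.44 and 0.38 at day 15. F511_39523, described as a nodule isozyme-like glutamine synthetase, had 236.48, 418.81 and 319.96 FPKM at day 15, against 55.28, 50.67 and 72.51 FPKM at day 0, with no overlap. Its means were 59.5 ± 11.5, 143 ± 26.4, 171 ± 24.6 and 325 ± 91.3 FPKM over the 4 days (SD, n = 3 each), and its log2 fold change at day 15 was 2.41 with an adjusted p of 0.000544.

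F511_04119, 1 of 2 genes described as a chloroplastic leaf isozyme of glutamine synthetase, fell. It had 139.67, 64.18 and 42.45 FPKM at day 15, against 728.24, 598.69 and 607.38 FPKM at day 0. Its means were 645 ± 72.4, 151 ± 46.7, 166 ± 116 and 82.1 ± 51.0 FPKM over the 4 days (SD, n = 3 each), with no overlap between day 0 and any later day. The log2 fold change was -3.13 at day 15 (adjusted p = 0.00488), called under all 18 alternatives. The other gene of that description, F511_44208, was the more abundant by its mean over the 12 libraries, with 471 FPKM beside 261 FPKM for F511_04119. It was not called on any day and had 353.89 to 510.2 FPKM at day 15 and 409.7 to 613.61 FPKM at day 0, which overlapped. Its log2 fold change in limma's test was -0.32 at day 15 (95% interval -0.76 to 0.13, adjusted p = 0.303), and it was singled out after its values were seen. F511_03431, the ferredoxin-dependent glutamate synthase of the chloroplast, which returns 2-oxoglutarate to glutamate, fell to 56.8 ± 18.1 FPKM at day 15, against 116 ± 5.63 FPKM at day 0 (SD, n = 3 each). Its log2 fold change was -1.06 with an adjusted p of 0.00751, and -0.86, under the fold minimum, without day 15 replicate 2. The other glutamate synthase of the list, F511_23801, described as the NADH form, was not called on any day. Its log2 fold change in limma's test was -0.13 at day 15 (adjusted p = 0.857), and it was singled out after its values were seen. The green mesophyll sums given above were lower at day 15 in the same libraries, and their part in the falls of F511_04119 and F511_03431 was not tested.

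**Figure D4:**
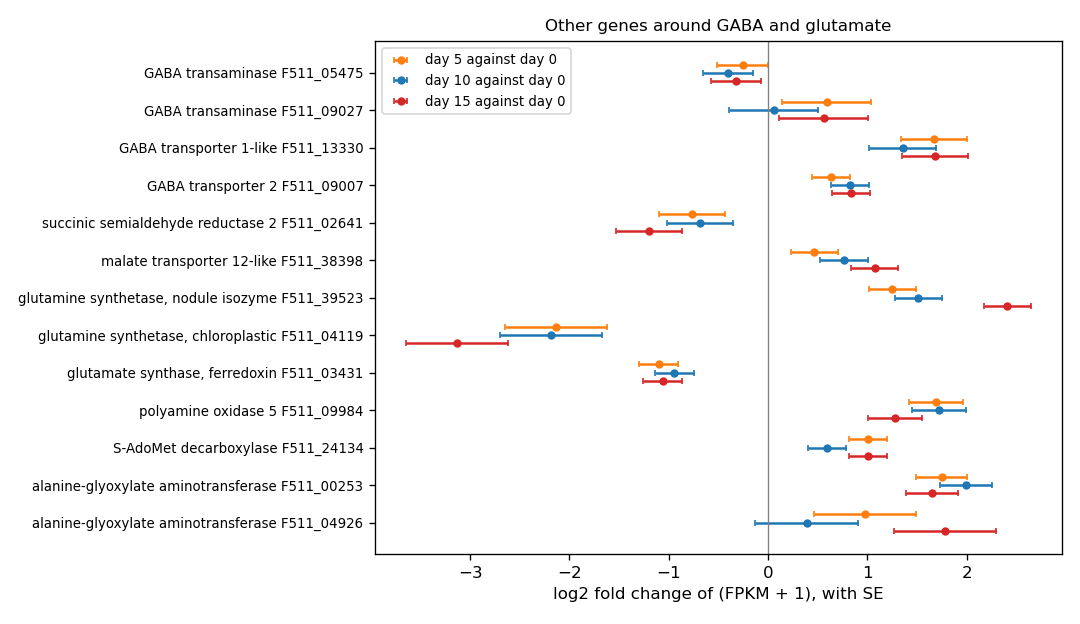
Log2 fold change of (FPKM + 1), with SE, at days 5, 10 and 15 against day 0 for 13 genes around GABA and glutamate. The nodule isozyme-like glutamine synthetase F511_39523 is at 2.41 and the chloroplastic F511_04119 at -3.13 at day 15, while the bars of both GABA transaminases stay within 1.1 of 0.

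GABA can also be made from polyamines, through amine oxidases and aminoaldehyde dehydrogenases. A list of 17 genes, all tested, was matched for making or oxidising polyamines. It also held F511_13047, described as betaine aldehyde dehydrogenase 1. Those called higher were 3 at day 5, 1 at day 10 and 4 at day 15, and none was called lower. The median log2 fold change was 0.45, 0.30 and 0.51, beside 0.14, 0.15 and 0.21 over all genes tested. After rescaling by median ratios the list medians were 0.28, 0.17 and 0.33. Of all genes tested, 3.13%, 2.24% and 4.63% were called higher and 3.48%, 2.26% and 4.38% lower. F511_09984, described as polyamine oxidase 5, rose to 80.8 ± 8.37 FPKM at day 5, against 25.4 ± 9.70 FPKM at day 0 (SD, n = 3 each), with a log2 fold change of 1.69 and an adjusted p of 0.00595. F511_24134, described as S-adenosylmethionine decarboxylase, which provides the aminopropyl groups of spermidine, averaged 352 ± 91.2 FPKM at day 15 and 173 ± 24.8 FPKM at day 0 (SD, n = 3 each). Its log2 fold change of 1.00 was called with an adjusted p of 0.00870, and it was 0.79 with median-ratio rescaling, 0.92 without day 0 replicate 1, 0.98 without day 0 replicate 3 and 0.80 without day 15 replicate 1, each under the fold minimum. With the same rescaling, 2, 1 and 2 of the 17 genes were called higher at the 3 days.

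Of 12 genes matched as alanine, aspartate or alanine--glyoxylate aminotransferases, 10 were tested and 1, 1 and 2 were called higher at days 5, 10 and 15, with none called lower. The median log2 fold changes were 0.32, 0.40 and 0.47, beside 0.14, 0.15 and 0.21 over all genes tested. After rescaling by median ratios the list medians were 0.19, 0.29 and 0.33. Of all genes tested, 3.13%, 2.24% and 4.63% were called higher and 3.48%, 2.26% and 4.38% lower. All of these calls fell on 2 genes described as alanine--glyoxylate aminotransferase, named for moving the amino group of alanine to glyoxylate rather than to or from glutamate. F511_00253, described as alanine--glyoxylate aminotransferase 2 homolog 3, rose to 60.3 ± 13.8 FPKM at day 10, against 14.7 ± 4.70 FPKM at day 0 (SD, n = 3 each), with a log2 fold change of 1.99 and an adjusted p of 0.00359. A second gene of that description, F511_04926, had 3.78 ± 2.195 FPKM at day 15 and 0.383 ± 0.664 FPKM at day 0 (SD, n = 3 each) and an adjusted p of 0.0383. This call was lost under 8 of the 18 alternatives, among them removal of day 0 replicate 1 (adjusted p = 0.128) or 2 (0.119), day 5 replicate 2 (0.0553), day 10 replicate 2 (0.0534), or day 15 replicate 1 (0.0835) or 3 (0.124).

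No gene was called at days 5, 10 or 15 against day 0 in the lists for proline made from glutamate (4 genes), the tricarboxylic acid cycle (22 genes) or calmodulin, the activator of glutamate decarboxylase (9 genes). Median log2 fold changes at the 3 days were -0.31, -0.12 and -0.19 for the proline genes, 0.26, 0.23 and 0.35 for the cycle and 0.49, 0.58 and 0.46 for the calmodulins. The cycle pattern also matched ATP-citrate synthases and assembly factors of succinate dehydrogenase, and the calmodulin pattern matched an interacting protein and a methyltransferase. With the libraries rescaled by median ratios, the median of all genes tested moved by -0.14, -0.15 and -0.19 at days 5, 10 and 15. The median of the cycle genes was then 0.10, 0.07 and 0.14 and that of the calmodulins 0.36, 0.41 and 0.30. In the 8 lists together, 93 of 102 genes were tested. Of these 93, 6, 4 and 9 were called higher and 2, 1 and 3 lower at the 3 days. Among all 17288 genes tested, 541, 387 and 801 (3.13%, 2.24% and 4.63%) were called higher. Those called lower were 601, 390 and 758 (3.48%, 2.26% and 4.38%). After the rescaling these background counts were 350, 248 and 493 higher and 731, 504 and 1000 lower.

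The genes whose levels were most like those of F511_23720 encode late embryogenesis abundant proteins and a dehydrin, which are hydrophilic proteins known from seeds and from drying plant tissues. Likeness was Pearson's r of log2(FPKM + 1) over the 12 libraries, among 7832 tested genes with a mean of at least 10 FPKM and a named description, and it is a description over libraries that share their day and culture. The highest was F511_16650, embryonic protein DC-8-like, with r = 0.967, followed by F511_06085, late embryogenesis abundant protein 2-like, with r = 0.966, and F511_17762, dehydrin-like protein Dh2, with r = 0.959. Mean levels at days 0, 5, 10 and 15 were 22.2, 99.0, 141 and 308 FPKM for F511_16650, 4.83, 30.4, 80.4 and 291 FPKM for F511_06085, and 219, 549, 1034 and 1458 FPKM for F511_17762. Like F511_23720, each of the 3 was lowest in replicate 3 among the libraries of day 5, with 45.09, 5.79 and 469.32 FPKM. Each was also highest in replicate 2 at day 15, with 373.53, 531.21 and 1703.54 FPKM. As the 3 were chosen by r over these same libraries, this shared order goes with the choice and adds nothing to it.

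**Figure D5:**
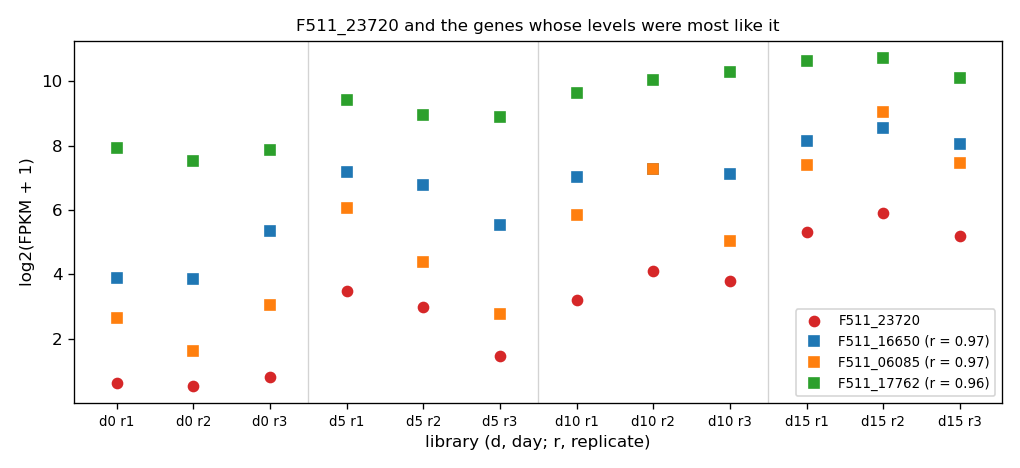
Level as log2(FPKM + 1) of F511_23720 (circles) and of F511_16650, F511_06085 and F511_17762 (squares) in each of the 12 libraries, grouped by day. All 4 genes are lowest in replicate 3 among the libraries of day 5 and highest in replicate 2 among those of day 15. The genes shown as squares were chosen by r with F511_23720 over these libraries (0.97, 0.97 and 0.96), so this shared order goes with the choice.

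The genes next to F511_23720 on its scaffold were low or moderate in level at both ends of the course. F511_23719, described as a cyclic nucleotide-gated ion channel and 3894 bases away, had 2.99 ± 2.00 FPKM at day 15 and 2.63 ± 1.04 FPKM at day 0. F511_23721, described as outer envelope protein 61 and 32156 bases away, had 28.5 ± 7.30 FPKM at day 15 and 22.3 ± 1.47 FPKM at day 0 (SD, n = 3 each). The neighbours of F511_00069 are F511_00068, described as benzyl alcohol O-benzoyltransferase-like and 1055 bases away, and F511_00070, a NADP-dependent isocitrate dehydrogenase 2573 bases away.

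In the authors' deposited table of CG regions that differed between mature and young leaves, 1 region was tied to F511_00069. It spans KQ990066.1 from 559034 to 559233, 200 bases with 8 CG sites, and ends 710 bases from the gene interval, which the authors' deposited table places within 2 kb downstream of both F511_00069 and F511_00068. Its methylation level in the authors' deposited table was 0 in mature leaves and 0.252 in young leaves, a difference of -0.252 with a p of 0.000311. The coverage behind these levels is not given, and 1 library of each kind leaves no replicate check. Of 2247 CG regions in the authors' deposited table, 1054 (46.9%) were lower in mature leaves and 394 (17.5%) had a difference as negative or more so.

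The 4 region tables cover 18 scaffolds, which hold 1346 of the 24110 genes (5.58%). Of these 1346 genes, 759 (56.4%) were tied to a CG region, so a region beside F511_00069 was the more common case. The scaffolds of F511_23720 and F511_11597 are not among the 18, and the methylation of these 2 genes was not analysed here. In the CHG and CHH tables no region was tied to F511_00069, and the nearest lay 13133 bases from it for CHG and 3590 and 5889 bases for the 2 strands of CHH. The leaf samples of the methylation tables are not explants, and no expression library of mature leaves was analysed here.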

How the data were processed

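RNA was measured in 12 explant libraries and DNA methylation in 1 library each of mature and young leaves, grouped by the labels. The authors deposited FPKM for each gene and library. Bowtie2 2.2.5, BSMAP, HISAT and StringTie 1.0.4 appear in the submitters' processing notes without a stated role, and the build is not given in the sources used here. Methylation levels are a fraction from 0 to 1 and region p-values are the authors', per the file headers; 6 level columns with sample names that the labels do not define were not used.

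Genes that reached 1 FPKM in 3 or more libraries were tested as log2(FPKM + 1) in 1 fit of all 12 libraries with a mean per day (limma 3.58.1, R 4.3.3, eBayes with trend and robust variances, statmod 1.5.0), two-sided, with Benjamini-Hochberg adjustment over all genes tested. A run of the fit on simulated data drew the spread of each library independently, so it did not cover deviations shared between libraries. The fit was repeated under 18 alternatives. These were another pseudocount, no filter, rescaling of libraries by median ratios, only the libraries compared, a replicate block, and replicates 1 and 2 only. Each of the 12 libraries was also left out in turn. Named genes are the 3 selected, up to 2 called higher and 2 called lower per list (mean of 1 FPKM or more, lowest adjusted p first), and the 3 most like F511_23720. Neighbouring genes were added after their values were seen. The genes, lists and tests were chosen with earlier results of these data known. Replicates are biological per the labels.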

Additional observations from a re-analysis of the deposited data

How the results depend on the processing

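Any call among the 3 genes was of F511_23720, selected with its levels known, so the following counts are descriptions and support nothing. The number of the 3 genes called stayed at 1 at days 10 and 15 against day 0, and at 0 at day 10 against day 5 and day 15 against day 10, under all 18 alternatives. At day 5 against day 0 it was 0 when only the 6 libraries compared were fitted and ran from 0 to 1 when each library was left out. At day 15 against day 5 it was 1 with replicates 1 and 2 only and ran from 0 to 1 when each library was left out, with 1 without day 5 replicate 3. F511_00069 and F511_11597 were called under no alternative. With the replicate block the counts were 1, 1 and 1 against day 0 and 0 between later days, and F511_11597 had an adjusted p of 0.0487 at day 5 and 0.0250 at day 15, still under the fold minimum. Deviations of each library from the mean of its day were correlated between same-numbered libraries. The r was over 0.1 in 4 of 6 pairs for replicate 1, 4 of 6 for replicate 2 and 6 of 6 for replicate 3 (0.166 to 0.656). By these deviations, 10 of 12 libraries correlated best with their own number. Same-numbered libraries thus shared part of their deviations. The main fit held no block because the labels give no pairing of replicates across days. With a pseudocount of 0.1 the log2 fold changes of F511_23720 against day 0 were 2.96, 4.20 and 6.04.

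Over all genes, replicates 1 and 2 alone gave 2035 calls at day 5 (1142 in all libraries), 1511 at day 10 (777), 10 at day 15 against day 10 (0) and 112 at day 15 against day 5 (8). At day 15 against day 5 the other pseudocount gave 3 calls, no filter 4 and 6 libraries 5. Fitting only 6 libraries gave 134 at day 10. Leaving out 1 library gave 420 to 1412 calls at day 5, 200 to 1175 at day 10, 749 to 1886 at day 15 and 0 to 22 at day 15 against day 5. The count fell by over 1.5 times at day 5 without day 0 or day 5 replicate 1 or 2 (420 to 534), at day 10 without day 0 replicate 1 or 2 or day 10 replicate 2 (200 to 300), and at day 15 without day 0 replicate 1 or 2 or day 15 replicate 2 or 3 (749 to 1021); it rose to 1175 at day 10 without day 0 replicate 3. The cause was not tested. Unknown depth and 3 libraries a day limit what can be detected, and the FPKM scale depends on the authors' normalization.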
